A study of Mus musculus with 11 samples.

Results

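The cytosolic ribosomal protein genes encode the proteins that, with the ribosomal RNAs, make up the large and small subunits of the ribosome in the cytoplasm. Their symbols start with Rpl for the large and Rps for the small subunit. They are transcribed in all cell types, their mRNAs are among the most abundant of a cell, and many of these mRNAs start with a terminal oligopyrimidine (TOP) tract, through which the mTOR pathway controls their translation. Growing neurons depend on them for the protein supply of the soma and the axon. Members were the protein-coding genes of the GENCODE annotation for mouse build mm9 whose symbol is Rpl or Rps followed by a digit, with Rplp0, Rplp1, Rplp2 and Rpsa, and without Rps6k genes, copies named -ps and paralogs with an l after the number. This rule found 78 of 22367 protein-coding genes, 45 named for the large subunit and 33 for the small subunit. Rps19bp1, which encodes a protein that binds RPS19 and is not itself part of the ribosome, and Rps4y2, a single-exon gene on chromosome 6, fit the rule by their symbols and were kept.

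Open chromatin was profiled by ATAC-seq, in which a transposase cuts accessible DNA, in sorted neurons of mouse embryos at embryonic day 14.5. Dopaminergic (DA) neurons were GFP-positive cells of the ventral mesencephalon of TH-GFP embryos, a line on a C57BL/6J background in which the Th promoter drives GFP, in 3 libraries. Serotonergic (5-HT) neurons were YFP-positive cells of hindbrain rhombomeres of Mash1-CRE x ROSA YFP embryos, in 2 libraries. Transgenic males were mated with Swiss wild-type females, and tissue of several embryos was pooled for each sort. Mash1 also drives Cre in precursors of other neurons, although the study reports Tph2 protein in nearly all of the sorted YFP-positive cells. By RNA-seq it also found DA and GABAergic marker genes expressed in YFP-positive cells. It reports Th protein in most but not all GFP-positive cells and proposes that GABAergic neurons slightly contaminated them. Each library holds a score for the same 131942 regions, where 0 marks a region without a peak, and the numbers of regions with a peak were 52861, 93055 and 94351 in DA 1, 2 and 3 and 38772 and 22879 in 5-HT 1 and 2. No unit is given for the score and the read depth is unknown, so each score was ranked within its own library. A percentile gives the place of a promoter's score among the promoters of all protein-coding genes with a peak in the same library. Tissue, transgenic line and the number of cells sorted, which was lower for 5-HT neurons, differ together with the cell type and cannot be told apart from it, and neither can more open cells from more open chromatin per cell. The promoter was the region overlapping 1 kb upstream to 100 bp downstream of an annotated transcription start site (TSS).

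The promoter of Th, which encodes the rate-limiting enzyme of dopamine synthesis, carried the DA label, with scores of 9.91, 10.6 and 8.45 in DA 1, 2 and 3 and 0 and 0 in 5-HT 1 and 2. Of the 11 DA marker genes fixed for this check, 11, 11 and 11 had a promoter peak in DA 1, 2 and 3, against 8 and 7 in 5-HT 1 and 2. Of the 6 markers of 5-HT neurons, 4, 5 and 4 had one in DA 1, 2 and 3, and 4 and 3 in 5-HT 1 and 2, so they did not set the 5-HT libraries apart. Tph2, which encodes the neuronal enzyme of serotonin synthesis, had a peak in all 5 libraries, with scores of 9.91, 7.59 and 11.1 in DA 1, 2 and 3 and 7.09 and 3.59 in 5-HT 1 and 2. Fev, a transcription factor of 5-HT neurons, had a peak in 5-HT 1 only, with a score of 3.88, and Slc6a4, the serotonin transporter, had peaks in each of the 3 DA libraries but none in 5-HT neurons. Gata3, a further transcription factor of the 5-HT lineage, had percentiles of 42.3, 11.4 and 15.8 in DA 1, 2 and 3. In 5-HT 1 and 2 it was at 38.1 and 90.5. Of the 3 GABAergic genes, Gad1 and Gad2 had peaks in all 5 libraries and Slc32a1 in the 3 DA libraries only. Of the 2 glutamatergic genes, both vesicular glutamate transporters, Slc17a6 had peaks in the 3 DA libraries and 5-HT 1 and Slc17a7 had none in any library. Of the 3 glial genes, Gfap lacked a peak in 5-HT 2 alone, and peaks were found for Olig2 in DA 2, DA 3 and both 5-HT libraries and for Aldh1l1 in DA 2 and 5-HT 2. Of the 5 endothelial, pericyte and microglial genes, Cldn5 lacked a peak in 5-HT 2 alone and Pdgfrb had peaks in DA 2 and DA 3, while Pecam1, Aif1 and Cx3cr1 had none in any library. Hbb-b1 and Hba-a1, the globin genes of blood, and Dbh, the noradrenergic enzyme, had no promoter peak in any library. The part of other cell types in the results below was not tested.

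Ribosomal protein promoters were open in nearly every library. All 78 members had a peak in DA 1, in DA 2 and in DA 3, 77 had one in 5-HT 1 and 70 in 5-HT 2. Over all protein-coding genes, the share with a promoter peak was 59.7%, 63.6% and 61.9% in DA 1, 2 and 3 and 58.1% and 49.5% in 5-HT 1 and 2. A peak in all 5 libraries was found for 69 of 78 members, or 88.5%, beside 48.3% of all protein-coding genes. With each library limited to as many of its highest scores as 5-HT 2 has peaks, 63 of 78 members had a peak in all 5, beside 38% of all protein-coding genes. The pattern of a DA-specific region, a peak in each DA library with none in 5-HT neurons, was found for 0 members, beside 2.05% of all protein-coding genes. This count rests on both 5-HT libraries, since it was 8 without 5-HT 1, beside 9.94% of all protein-coding genes, and 1 without 5-HT 2, beside 2.58%. With the 10000 highest scores of each library it was 4, beside 0.791%.

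The 9 members without a peak in all 5 libraries each lacked it in a single 5-HT library. Rpl6, a large subunit protein, had none in 5-HT 1, with scores of 4.82, 7.04 and 6.59 in DA 1, 2 and 3 and 0 and 3.06 in 5-HT 1 and 2. The 8 others had none in 5-HT 2, the library with the fewest peaks. They were Rpl4, whose protein lines the exit tunnel for the nascent chain, Rpl8, Rpl9, Rpl13, Rpl23, Rpl35a, Rps24 and Rps4y2. RPL35A and RPS24 belong to the ribosomal proteins that are mutated in Diamond-Blackfan anaemia, a failure of red cell formation. Among these 8, the scores in 5-HT 1 ran from 3.38 for Rps4y2 to 6.01 for Rpl13, beside a median of 5.69 over all protein-coding promoters with a peak in that library. In the DA libraries Rpl13, a large subunit protein, stood above the middle, at percentiles of 74.1, 80.1 and 54.0. Of the genes with a peak in all 3 DA libraries, 5-HT 2 lacked a peak for 10.3% of the members and 16.9% of all protein-coding genes. The read depth of 5-HT 2 is unknown, so a missing peak there is a peak not called and not evidence of closed chromatin.

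Among open promoters, those of ribosomal protein genes stood above the middle. Their median score was 10.0, 12.8 and 9.47 in DA 1, 2 and 3, against 7.67, 9.31 and 7.94 over the promoters of all protein-coding genes with a peak. In 5-HT 1 and 2 it was 6.49 and 4.76, against 5.69 and 4.35. The median percentile of the members was 71.5, 73.1 and 62.5 in DA 1, 2 and 3 and 64.0 and 59.7 in 5-HT 1 and 2, where the middle of all protein-coding promoters lies at 50 by construction. The means over libraries were 69.1 ± 5.69 (SD, n = 3) for DA and 61.8 ± 3.07 (SD, n = 2) for 5-HT. The 2 groups of library medians overlapped, since DA 3 lay below 5-HT 1, and with the 10000 highest scores of each library the order turned, to 56.9 for DA and 60.4 for 5-HT. Only promoters with a peak enter a percentile, and the 8 members without a peak in 5-HT 2 are not in its median. Members above the 90th percentile numbered 15, 15 and 13 in DA 1, 2 and 3 and 16 and 8 in 5-HT 1 and 2, and 2, 1, 1, 3 and 5 lay below the 10th.

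**Figure D1:**
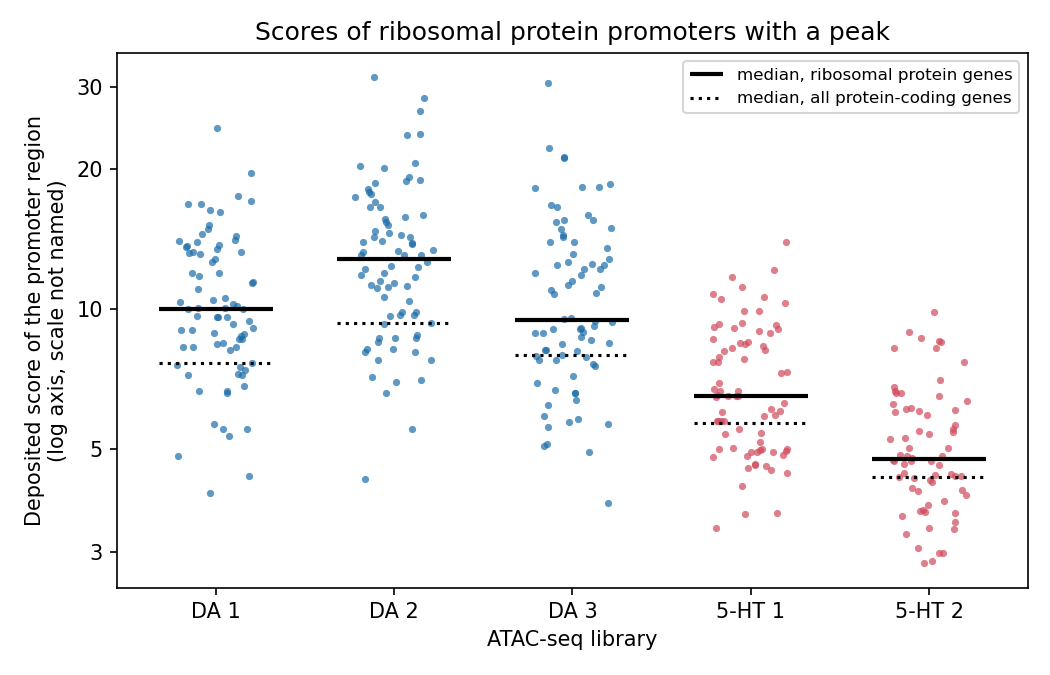
Deposited score of the promoter region (log axis, scale not named) for each ribosomal protein gene with a peak, in 3 DA libraries (blue) and 2 5-HT libraries (red). A point is a gene, the solid line is the median of the ribosomal protein genes and the dotted line the median of all protein-coding promoters with a peak, and the solid line lies above the dotted line in each library, with 12.8 against 9.31 in DA 2 and 4.76 against 4.35 in 5-HT 2.

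The members covered almost the whole range of open promoters. Rpl37, a small zinc-binding protein of the large subunit, held the highest mean percentile over the 5 libraries. Its promoter at chr15:5065949-5067086 (mm9, plus strand) scored 24.4, 26.6 and 30.6 in DA 1, 2 and 3 and 13.95 and 9.84 in 5-HT 1 and 2, and its percentile was 97.7 or above in each. Rps19, the gene most often mutated in Diamond-Blackfan anaemia, followed at chr7:25668765-25670017 with percentiles of 98.4, 99.3, 97.4, 98.2 and 94.8 in the same order of libraries. Rpl13a, whose protein also takes part in translational silencing in inflammation, had percentiles of 96.2, 97.6, 92.5, 95.8 and 95.7 at chr7:52383854-52384919. Rpl27, Rpl15 and Rpl18, of the large subunit, were also among the highest, with mean percentiles of 95.2, 94.3 and 90.1. None of these 6 promoters fell below the 85.3 percentile in any library.

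At the other end, Rpl4 had the lowest mean percentile, 13.0, with scores of 4.37, 5.52 and 3.83 in DA 1, 2 and 3 and 4.17 and 0 in 5-HT 1 and 2. Rps4y2 followed with 14.97 and Rpl6 with 22.5. Rpl38, whose loss in the mouse disturbs the axial skeleton and the translation of Hox mRNAs, had percentiles of 23.9, 43.2, 25.3, 4.86 and 22.4 in DA 1, 2 and 3 and 5-HT 1 and 2. Rpl19 stood at 5.66, 27.7, 20.9, 30.8 and 35.6 in the same order, and Rpl35a, Rpl23a and Rps19bp1 had mean percentiles of 30.7, 32.0 and 33.6. These promoters were open, but on average most other protein-coding promoters with a peak scored higher. Rpl4, Rpl6, Rpl35a and Rps4y2 each lacked a peak in a 5-HT library, and their means cover the other 4.

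**Figure D2:**
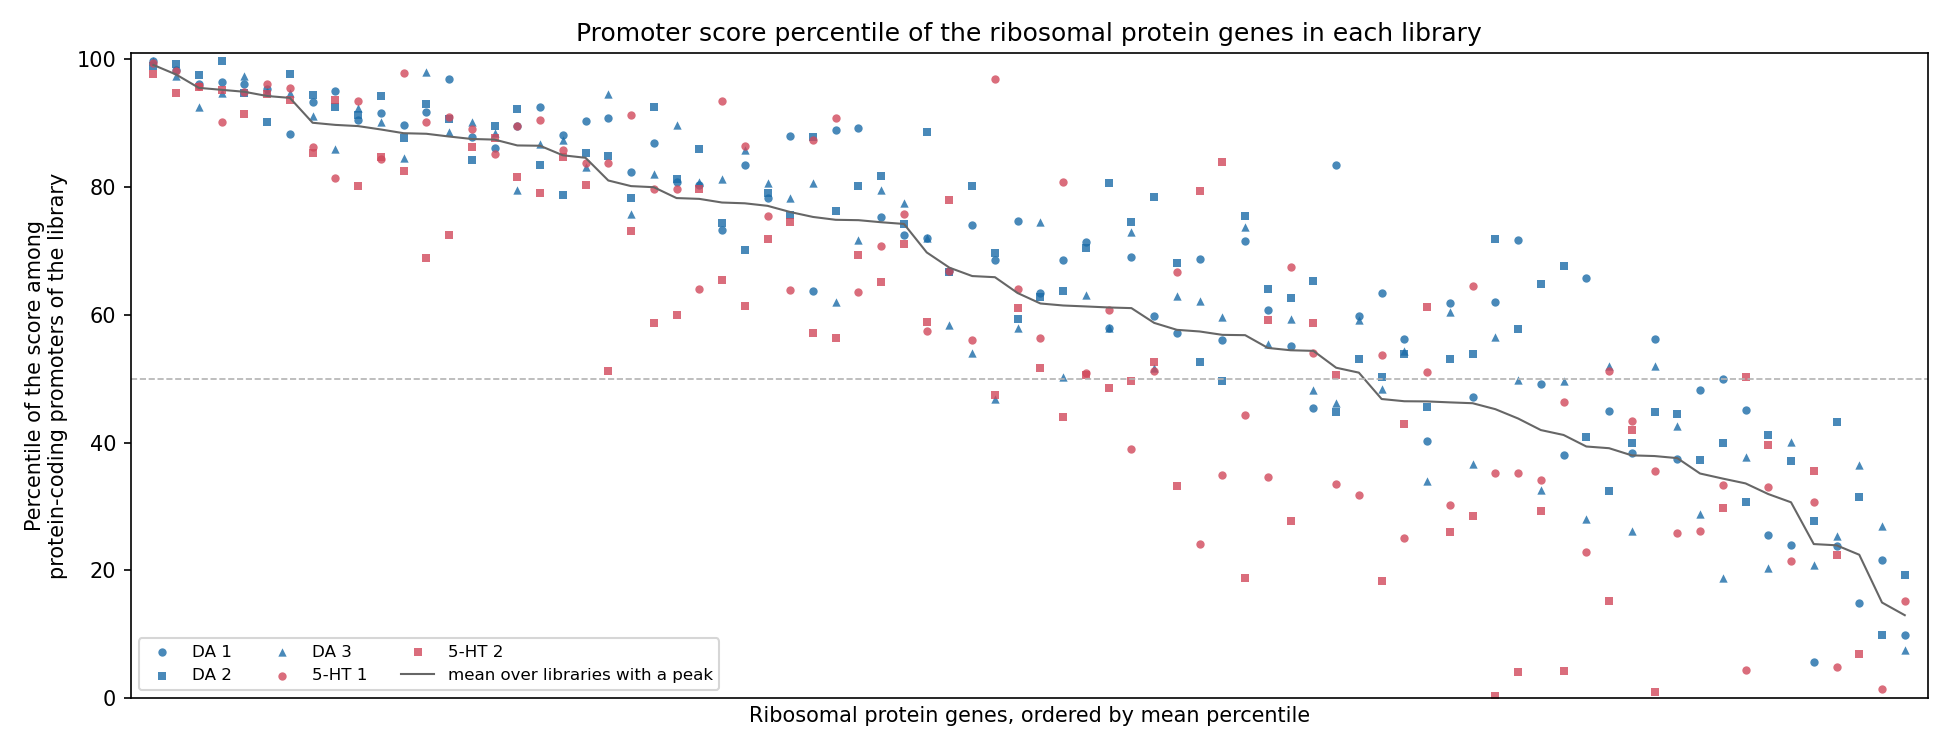
Percentile of the promoter score among the protein-coding promoters with a peak in the same library (vertical axis) for the 78 ribosomal protein genes (horizontal axis, ordered by mean percentile, names not drawn), with a symbol for each library and a line for the mean over the libraries with a peak. The order runs from Rpl37 at 99.1 to Rpl4 at 13.0, and the libraries lie close together at the upper end and apart in the middle.

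The proteins of the ribosomal stalk, which recruits the GTPases of translation, did not share a level. Rplp0, its base, had a mean percentile of 89.0, whereas Rplp1 and Rplp2, which form dimers on it, had 58.7 and 42.0. The scores of Rplp0 were 14.4, 20.1 and 15.5 in DA 1, 2 and 3 and 8.23 and 6.60 in 5-HT 1 and 2. Those of Rplp2 were 7.59, 11.4 and 6.21 in DA 1, 2 and 3 and 4.96 and 3.68 in 5-HT 1 and 2, lower than those of Rplp0 in each library. Rpsa, a small subunit protein also known as a laminin receptor, had a mean percentile of 86.5. Rpl5 and Rpl11, which together with 5S RNA bind Mdm2 and so couple ribosome assembly to p53, lay close to each other at 61.8 and 61.1. The percentiles of Rpl11 were 69.1, 74.5, 72.9, 39.1 and 49.7, and those of Rpl5 63.4, 62.9, 74.6, 56.3 and 51.8. Rps6, the target of the S6 kinases downstream of mTOR, had a mean of 76.1. Rps14, the gene tied to the anaemia of human 5q deletion, had 81.0, Rpl3 at the peptidyl transferase centre 46.3, and Rps15, which is needed for the export of the small subunit from the nucleus, 45.2.

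All 4 X-linked members, Rpl10, Rpl36a, Rpl39 and Rps4x, had a peak in all 5 libraries. Their mean percentiles ran from 46.8 for Rpl39 to 80.2 for Rpl36a, with 54.5 for Rps4x and 69.8 for Rpl10, whose protein joins the large subunit late in its maturation. The 45 genes of the large subunit had median percentiles of 68.7, 74.3 and 63.0 in DA 1, 2 and 3 and 60.5 and 58.7 in 5-HT 1 and 2. For the 32 genes of the small subunit without Rps19bp1 they were 75.0, 73.8 and 62.6 in DA 1, 2 and 3 and 65.4 and 61.2 in 5-HT 1 and 2. The subunit with the higher median was the small one in DA 1, 5-HT 1 and 5-HT 2 and the large one in DA 2 and DA 3, so the libraries gave no common order. A peak in all 5 libraries was found for 38 of 45 large subunit genes and 30 of 32 small subunit genes.

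To compare DA with 5-HT neurons, limma was fitted to normal scores of the ranks within each library, over the 9662 distinct promoter regions with a peak in all 5 libraries. No ribosomal protein promoter passed an adjusted p of 0.05 among the 69 fitted. Over all promoters, 0.0103% were called higher in DA and 0.155% higher in 5-HT, 1 and 15 regions. The lowest adjusted p of a member was 0.159 (limma, Benjamini-Hochberg over all promoters). At an unadjusted p under 0.05 there were 9 members of 69, or 13.0%, beside 13.7% of all promoters, so the 2 shares lay close together. With log2 scores after quantile normalisation, with all regions open in 5 libraries and with a trend in the prior variance, limma also called 0 members, and with the replicate number as a block it called 1, Rps15, beside 0.745% of all promoters. The members' median difference, DA minus 5-HT, was 0.18 on the normal score scale and that of all promoters 0.0073.

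Those below an unadjusted 0.05 with the higher rank in DA were Rpl3, Rpl11, Rpl14, Rps7, Rps14, Rps15 and Rps15a, and those with the higher rank in 5-HT were Rpl10a and Rpl19. Rpl14, a large subunit protein, had percentiles of 71.6, 75.4, 73.8, 44.4 and 18.9 in DA 1, 2 and 3 and 5-HT 1 and 2, so the groups did not overlap, and its difference was 1.08 with a standard error of 0.28 and an adjusted p of 0.159 in limma. Rps15 had 62.1, 71.9, 56.5, 35.3 and 0.348, with its last 2 values far apart. Its score in 5-HT 2, 2.84, was close to the lowest score of any peak of that library, 2.83. Rps7 and Rps15a had the same form, at 4.17 and 0.918 in 5-HT 2 and at 35.3 and 35.5 in 5-HT 1. Rpl37a, of the large subunit, went the other way in a single library, with percentiles of 68.5, 69.7, 46.8, 97.0 and 47.5. Rpl10a, Rpl14, Rpl37a, Rps7, Rps15a and Rps25 were named after their values were seen. Every DA percentile lay above both 5-HT percentiles for 22 of 69 members, or 31.9%, beside 25.5% of protein-coding genes with a peak in all 5, and below both for 3 members (Rpl10a, Rpl19 and Rps16), or 4.35%, beside 8.24%.

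With 2 libraries of 5-HT neurons, the counts of calls depended on which of them was used. Without 5-HT 1, 7 of 70 members passed an adjusted p of 0.05 in limma (10.0%), beside 11.1% of all promoters in either direction. Without 5-HT 2, 2 of 77 passed, Rpl37a higher in 5-HT and Rps19bp1 higher in DA, beside 1.26% of all promoters. The lone library is then assumed to vary like the DA libraries. Without 5-HT 1, the 6 members called higher in DA were Rpl14, Rps7, Rps14, Rps15, Rps15a and Rps25. No member was called in both of these fits.

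The order of the members was similar between libraries. Across the 69 members with a peak in all 5, the Spearman correlation of scores ran from 0.857 to 0.887 between DA libraries, was 0.684 between the 5-HT libraries, and ran from 0.739 to 0.792 between a DA and a 5-HT library. Over the 10814 protein-coding genes with a peak in all 5, the same 3 values were 0.898 to 0.916, 0.742, and 0.750 to 0.836. These are descriptions across genes, which are not independent replicates and share the width and base composition of their regions between libraries. The 5-HT libraries thus resembled each other less than each resembled the DA libraries, for the members and, by a smaller margin, for all genes. A member's percentile ranged over a median of 9.69 points among the 3 DA libraries and differed by a median of 11.4 points between the 5-HT libraries, beside 11.2 and 12.3 points over all genes.

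Cytosolic ribosomal proteins also come from genes that the symbol rule leaves out. Fau, which encodes RPS30 fused to a ubiquitin-like protein, and Gnb2l1, which encodes the scaffold RACK1 of the small subunit, had a promoter peak in all 5 libraries. Their mean percentiles were 49.5 and 66.3. The paralogs with an l after the number included promoters with and without a called peak. Rpl22l1 had the highest, with percentiles of 98.6, 96.9, 96.2, 98.9 and 89.6, above its parent Rpl22, which had 86.8, 92.5, 82.1, 79.7 and 58.7. Rpl36al, Rps27l and Rpl7l1 had a peak in all 5 libraries, with mean percentiles of 79.6, 44.6 and 40.7. Rpl3l, known from striated muscle, and Rpl10l and Rpl39l, known from the testis, had no promoter peak in any library, whereas Rpl3, Rpl10 and Rpl39 had a peak in all 5.

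Processed copies of ribosomal protein genes are spread over the mouse genome, and almost none had a peak at its start. Of 55 copies named -ps that the annotation lists as protein-coding, 2 had a peak at their start in any library, and of 107 of pseudogene biotype, 2. Rps19-ps10 was the only copy with a peak in all 5 libraries, with scores of 8.37, 7.97 and 7.19 in DA 1, 2 and 3 and 7.91 and 4.42 in 5-HT 1 and 2 at chr10:52104876-52105521. Rpl21-ps7 and Rpl30-ps6 had a peak in the 3 DA libraries only, and Rpsa-ps4 in DA 3 only. Reads from near-identical copies can be placed wrongly or discarded by an aligner, which was not tested. These 4 copies were named after their values were seen.

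Other genes of protein synthesis and turnover gave a frame for these values. Of the mitochondrial ribosomal protein genes, 59 of 77 (76.6%) had a peak in all 5 libraries, with median percentiles of 58.4, 64.7 and 60.04 in DA 1, 2 and 3 and 61.0 and 59.4 in 5-HT 1 and 2. Initiation factor genes gave 47 of 58, elongation factor genes 7 of 9 and proteasome subunit genes 32 of 42. Initiation factors had median percentiles of 58.6, 65.7 and 60.5 in DA 1, 2 and 3. In 5-HT 1 and 2 they had 63.2 and 61.3. Proteasome subunits had 63.4, 63.3, 60.9, 57.2 and 65.7 in the same order, and elongation factors 47.3, 63.7, 53.5, 64.04 and 50.7. In each DA library these sets lay below the ribosomal protein genes. In 5-HT 2 the initiation factors and proteasome subunits lay above them. Genes of the nucleolus and of the snoRNA particles, which assemble and modify ribosomal RNA, gave 9 of 10, with median percentiles of 81.3, 75.5 and 81.1 in DA 1, 2 and 3 and 78.0 and 64.7 in 5-HT 1 and 2, above those of the ribosomal protein genes in each library. Nucleolin, Ncl, led them with a mean percentile of 94.2. Of the 5 RNA polymerase I genes, 4 had a peak in all 5 libraries, and Polr1e was the exception. Their median percentiles were 73.2, 69.8 and 72.3 in DA 1, 2 and 3 and 74.3 and 63.7 in 5-HT 1 and 2. These lay below those of the ribosomal protein genes in DA 2 alone and above them in the other libraries. Among the 11 genes of a list of mTOR signalling and TOP control, which also held Myc and Mycn, 9 had a peak in all 5. Mtor itself had a mean percentile of 92.8, and Larp1, which binds TOP mRNAs, of 12.8. Of 1113 olfactory receptor genes, which act in the olfactory epithelium, 1 had a peak in all 5 libraries.

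The regions at ribosomal protein promoters were short. Their median width was 1042 bp, beside 1283 bp for protein-coding genes with a peak in all 5 libraries, and they ran from 481 bp at Rpl27 to 2599 bp at Rpl7. The widest were Rpl7, Rpl15 with 2235 bp, Rpl24 with 1974 bp, Rpl30 with 1801 bp and Rpl39 with 1795 bp. The region counted for Rpl24 lies at the start of a long form that RefSeq gives to the neighbouring gene Zbtb11. Its region at the starts of the short form, given below, is narrower. The regions of Rpl7 and Rpl15 are also the promoter regions of the neighbouring genes Rdh10 and Nkiras1. Each member's region held the start most used by its coding transcripts, as did those of 10139 of the 10814 protein-coding genes with a peak in all 5. Among equally used starts, those inside the region were preferred, and then the most upstream was taken. That choice favours a start inside the region and a longer stretch downstream of it. The members' regions reached a median of 438 bp upstream and 592 bp downstream of this start. Ribosomal protein genes are compact, with a median span of 3238 bp beside 26355 bp. A further region with a peak that overlapped the gene but none of its promoter windows was found for 4 members (Rpl22, Rpl24, Rpl26 and Rps19bp1), or 5.13%, beside 55.2% of these genes. Rpl13a, Rpl18 and Rpl24 also had a further region in the window of another annotated start, which this count leaves out. The mean percentile of the members had a Spearman correlation across genes of 0.265 with the width of the region (n = 78) and 0.345 with the GC content around the TSS, beside -0.0632 and -0.0775 over the 10814 open protein-coding genes. With the observed to expected ratio of CpG the correlation was 0.267 for the members, beside 0.143 over the open protein-coding genes. Genes are not independent replicates, and the values share their libraries.

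For Rpl24, the gene of the Belly spot and tail mouse, the annotation joins transcripts of a short and a long form in a single gene on chromosome 16, and RefSeq (GRCm38.p6) gives the long form to the neighbouring gene Zbtb11. The region chosen by the rule, chr16:55973341-55975314, lies at the start of the long form, with scores of 13.2, 15.4 and 15.5 in DA 1, 2 and 3 and 8.89 and 6.80 in 5-HT 1 and 2. The region at the starts of the short form, chr16:55965882-55966975, had a peak in all 5 libraries as well, with scores of 11.5, 13.7 and 14.1 in DA 1, 2 and 3 and 8.80 and 3.98 in 5-HT 1 and 2. With that region, an alternative chosen after seeing the data, 69 members had a peak in all 5, and the median percentile of the members was 69.1 in DA and 61.5 in 5-HT.

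The members lie on 19 chromosomes. Chromosome 7 carries 14 of them, more than any other, and their median mean percentile was 81.2, beside 46.9 for all protein-coding genes with a promoter peak on this chromosome. The 7 members on chromosome 11 had a median of 35.2, from 23.9 to 95.2, beside 39.4 for the chromosome. These 2 chromosomes were singled out after their values were seen. A protein-coding gene starts on the other strand within 1 kb upstream of 10 members, or 12.8%, beside 15.6% of protein-coding genes with a peak in all 5. Among these pairs are Rpl18 with Sphk2, Rpl7a with Med22 and Rpl4 with Zwilch, each pair sharing a region. Of these members 7 had a peak in all 5 libraries. Their median percentiles were 58.9, 59.0 and 52.5 in DA 1, 2 and 3 and 40.5 and 50.7 in 5-HT 1 and 2, below those of the other members in each library, which were 71.9, 75.0 and 71.9 in DA 1, 2 and 3 and 66.8 and 61.0 in 5-HT 1 and 2. This difference was not tested.

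Introns of ribosomal protein genes are known hosts of small nucleolar RNAs (snoRNAs), which guide the modification of ribosomal RNA. An annotated snoRNA lay within 30 of 78 members on the same strand, or 38.5%, beside 2.02% of protein-coding genes with a peak in all 5 libraries, and the members held 58 snoRNAs in all. Rpl4 held 5, and Rpl7a and Rpl13a held 4 each. Hosts of snoRNAs were found at both ends of the order, with Rpl13a near the top and Rpl4 last. The median percentiles of the 30 hosts were 73.1, 72.2 and 62.5 in DA 1, 2 and 3 and 64.6 and 58.8 in 5-HT 1 and 2. Those of the 48 other members were 70.3, 73.1 and 61.4 in DA 1, 2 and 3 and 64.0 and 60.03 in 5-HT 1 and 2, within 3 points of the hosts in each library.

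A TOP tract is a C at the TSS followed by a run of pyrimidines. With at least 4 pyrimidines, it was found at an annotated TSS of 25 of 78 members, or 32.1%, beside 6.17% of all protein-coding genes and 8.08% of those with a peak in all 5 libraries. The tracts were 6 to 17 bases long, with a median of 8, and the longest was that of Rps24. A gene has several annotated starts, and a median of 4 starts per member and 3 per open protein-coding gene were searched. At the start most used by coding transcripts, a tract was found in 3 members (Rpl14, Rpl32 and Rps21), or 3.85%, beside 2.08% of open protein-coding genes. With coding transcripts alone, 16 members, or 20.5%, had a tract at a start, beside 4.92% of open protein-coding genes. Within 10 bases of a start, the counts were 57 members, or 73.1%, and 60.8% of open protein-coding genes. The median mean percentile was 69.8 for members with a tract at a TSS and 61.3 for those without.

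The starts of 6 promoters from the upper end of the order show how varied these sites are. Each line gives 30 bases before and 20 bases from the annotated TSS on, 5′ to 3′ on the strand of the gene, with a TOP tract at the TSS in capitals. The TSS with the longest tract was taken, or without a tract the start most used by coding transcripts.
Rpl37: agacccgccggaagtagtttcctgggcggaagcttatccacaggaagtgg
Rps19: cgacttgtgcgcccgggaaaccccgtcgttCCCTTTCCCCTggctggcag
Rpl13a: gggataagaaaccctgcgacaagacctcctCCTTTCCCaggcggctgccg
Rpl27: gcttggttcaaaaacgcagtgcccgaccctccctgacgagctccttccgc
Rpl15: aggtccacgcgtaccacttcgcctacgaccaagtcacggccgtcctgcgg
Rpl18: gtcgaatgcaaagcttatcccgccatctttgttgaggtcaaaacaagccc
The windows lie in mm9 at chr15:5066583-5066632 for Rpl37, chr7:25669622-25669671 for Rps19, chr7:52384088-52384137 for Rpl13a, chr11:101303582-101303631 for Rpl27, chr14:19103886-19103935 for Rpl15 and chr7:52970797-52970846 for Rpl18. Rpl13a and Rpl15 are on the minus strand and the others on the plus strand. Rps19 and Rpl13a begin with a tract of 11 and 8 bases. The tract of Rps19 lies at the start of a transcript marked for nonsense-mediated decay, 262 bases downstream of its most used start, and that of Rpl13a lies 11 bases downstream of its own. The other 4 have no tract at any annotated TSS, which says only that these starts do not begin with one.

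Promoter motifs were searched from 250 bases before to 50 bases after the start most used by coding transcripts, on both strands, except the TATA box. The ETS word CCGGAAG was found in 25 members, or 32.1%, beside 11.1% of all protein-coding promoters and 18.03% of those open in all 5 libraries. The word TCTCGCGA, which is bound by the methylation-sensitive factor BANP, was found in 12 members, or 15.4%, beside 1.35% and 2.45%. The YY1 word AANATGGCG was in 7 members, or 8.97%, beside 3.16% and 5.26%. The SP1 word GGGCGG was in 40 members, or 51.3%, beside 44.9% and 66.4%, so it was rarer in the members than in other open promoters. The E-box CACGTG, a site of Myc proteins, was in 10 members, or 12.8%, beside 7.82% and 10.1%, and the NRF1 word GCATGCGC in 3, or 3.85%, beside 3.38% and 5.71%. TATAAA within 60 bases before the start, on the strand of the gene, was found in Rpl30 alone, or 1.28%, beside 3.40% and 1.22%. Each word was counted separately, words can overlap each other, and TCTCGCGA is matched on both strands where the palindrome TCTCGCGAGA occurs. A match is a description and not a site of binding. The ETS, SP1 and E-box matches counted for Rpl24 lie at the start of its long form.

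**Figure D3:**
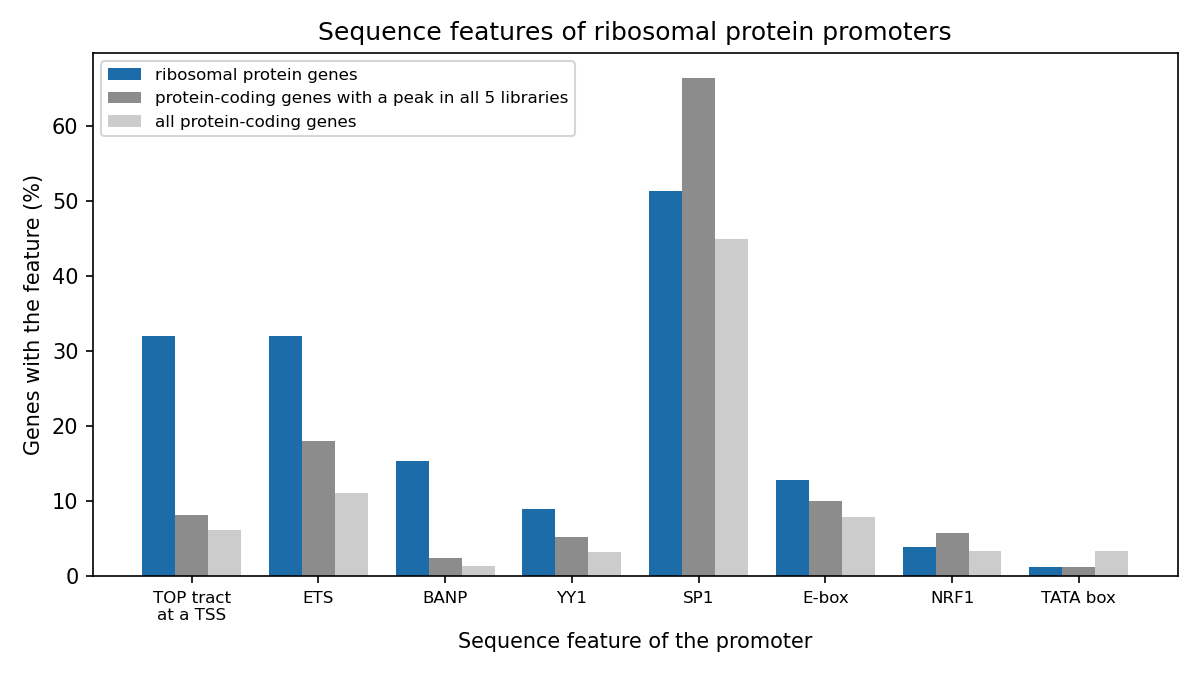
Share of genes (%) with each sequence feature, for the ribosomal protein genes (blue), the protein-coding genes with a promoter peak in all 5 libraries (dark grey) and all protein-coding genes (light grey). The members lie above both other groups for the TOP tract at any annotated TSS (32.1%), ETS (32.1%) and BANP (15.4%), and below the open promoters for SP1 (51.3% against 66.4%).

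The ETS and BANP words did not go with a higher score. Members with the ETS word had a median mean percentile of 61.5 and those without it 63.4, and for the BANP word the values were 61.3 and 64.7. The 10 members with an E-box, Rpl24 by its long form among them, had 87.0, against 61.6 without it. The 7 with the YY1 word had 77.5, against 61.8. These differences between members were not tested. The GC content from 250 bases before to 50 bases after the TSS had a median of 56.2%, from 40.7% at Rpl4 to 71.0% at Rps10, beside 61.3% for open protein-coding promoters. The observed to expected ratio of CpG was 0.865 beside 0.786.

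The promoters of Rpl37 and Rpl4, at the ends of the order, and of Rps6, which holds both an ETS and a BANP word, are given from 250 bases before to 20 bases from the TSS on, 5′ to 3′ on the strand of the gene, with ETS, YY1 and BANP words of either strand in capitals. Rps6 was picked for this after the words had been found.
Rpl37: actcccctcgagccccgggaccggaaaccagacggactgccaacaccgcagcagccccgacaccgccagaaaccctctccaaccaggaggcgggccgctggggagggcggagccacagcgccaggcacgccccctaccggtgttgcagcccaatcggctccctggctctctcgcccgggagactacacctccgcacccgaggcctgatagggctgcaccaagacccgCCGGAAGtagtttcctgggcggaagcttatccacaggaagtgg
Rps6: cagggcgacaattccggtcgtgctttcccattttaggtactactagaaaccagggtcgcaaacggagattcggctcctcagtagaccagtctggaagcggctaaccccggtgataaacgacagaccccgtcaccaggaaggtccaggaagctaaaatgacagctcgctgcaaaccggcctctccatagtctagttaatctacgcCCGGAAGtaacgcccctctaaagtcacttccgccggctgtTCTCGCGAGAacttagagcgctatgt
Rpl4: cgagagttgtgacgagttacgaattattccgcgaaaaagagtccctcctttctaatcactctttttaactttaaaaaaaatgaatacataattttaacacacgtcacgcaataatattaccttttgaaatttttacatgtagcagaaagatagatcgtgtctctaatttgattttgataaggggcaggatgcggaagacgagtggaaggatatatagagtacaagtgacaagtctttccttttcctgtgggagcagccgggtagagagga
In mm9 they lie at chr15:5066363-5066632 (plus), chr4:86503297-86503566 (minus) and chr9:64020944-64021213 (plus). Positions give the first base of a word, with the TSS at 0 and a minus sign upstream. The promoter of Rpl37 has an ETS word at -23. In Rps6 an ETS word begins at -46, and the BANP word is part of a palindrome that begins at -6 and runs across the TSS, so that it is read on both strands. The promoter of Rpl4, with the lowest GC content of the members, holds none of the 3 words in this stretch.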

How the data were processed

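By the labels and the methods of the study, the authors used Trimmomatic and FastQC on the paired-end reads, Bowtie2 for alignment to mm9, Picard for duplicates, MACS2 for the peaks of single libraries, BEDOPS to merge near peaks, and HOMER. Versions are not given in the sources used here. The deposited score, 1 per region and library, has an unnamed scale. 1 misspelled chromosome name was read as chrY. The RNA-seq libraries were not analysed here. The read depth is unknown, so no precision of a single score can be given.

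Where several regions met a promoter, the region with peaks in the most libraries was taken, then the one with the highest lowest score. Differences were tested with limma 3.58.1 in R 4.3.3, two-sided, and the procedure was tested on simulated data. The libraries of a cell type come from separate sorts. Other steps used Python 3.11.15 and pandas 2.3.3. Sequences were read from the mm9 genome (NCBIM37). The RefSeq promoter table held 56 of 78 members, too few to use for the motifs. Named were the members without a peak in all 5 libraries, the 8 highest and 8 lowest by mean percentile, the 5 widest regions, any past the threshold, and genes of known role, of which not all are printed. The members and lists were chosen with earlier results of these data known. Alternatives were other promoter windows, coding transcripts, merged regions, fewer peaks per library, stricter members, other fits, each library left out and, chosen after seeing the data, another region for Rpl24.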

Additional observations from a re-analysis of the deposited data

How the results depend on the processing

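The number of members with a peak in all 5 libraries and their median percentiles moved little with the promoter window, coding transcripts, merged regions or stricter members. With the 10000 highest scores of each library, 40 members had a peak in all 5 and 4 had one in the 3 DA libraries and neither 5-HT library, beside 20.0% and 0.791% of all protein-coding genes, as fewer peaks were used. Leaving out a library gave 69 to 77 and 0 to 8 members for these counts, the highest values without 5-HT 2 and without 5-HT 1. The median percentile in the DA libraries was 63.2 at equal numbers of peaks and 56.9 at 10000, and 92.8 among all peaks of a library, promoters or not, where that of the 5-HT libraries was 79.9. Without a library it ran from 67.0 to 72.3 in DA and from 59.7 to 63.7 in 5-HT. At equal numbers and at 10000, the 5-HT values were 58.8 and 60.4, so the order of the cell types turned at 10000. The cause was not tested.

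The number of members that differed between cell types, 0, was 0 to 7 without a library, the highest without 5-HT 1 (beside 11.1% of all promoters), and 2 without 5-HT 2 (beside 1.26%). With the replicate number as a block it was 1, Rps15 (beside 0.745%). The numbers mark separate sorts and give no pairing, and the deviations of same-numbered libraries from their group means correlated at -0.0454 and 0.0101 across promoters. A TOP tract within 10 bases of a TSS was found in 57 members and with coding transcripts only in 16. Depth is unknown, which limits what a missing peak shows.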
